A study of Rattus norvegicus with 12 samples.

Results

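The genes described here are the aminoacyl-tRNA synthetases of the rat together with the gene for the transcription factor ATF4 and a set of amino acid genes that ATF4 is known to switch on. Members were chosen by gene symbol: every gene whose symbol is a 1-letter amino acid code followed by "ars", with or without the suffix 1, 2 or 3, plus Eprs, Farsa, Farsb and a fixed list of 14 ATF4 genes. The rule found 52 genes in both deposited tables, of 21568 genes in the jejunum table and 18703 in the liver table. They comprise 21 cytosolic synthetases, 17 mitochondrial synthetases (suffix 2) and the 14 ATF4 genes.

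A synthetase joins 1 amino acid to its transfer RNA, the step that supplies every ribosome with charged tRNA. The cytosolic enzymes serve nuclear-encoded proteins, and a separate nuclear-encoded set works inside mitochondria. Gars and Kars encode both a cytosolic and a mitochondrial form. When charged tRNA runs short or the endoplasmic reticulum is stressed, kinases phosphorylate the initiation factor eIF2alpha, general translation slows and ATF4 mRNA is translated more efficiently. ATF4 then raises transcription of amino acid transporters, of enzymes that make asparagine, serine and glycine, of folate enzymes of the mitochondrion and of many cytosolic synthetases. Because ATF4 is controlled largely at translation, its mRNA level and the levels of its target mRNAs are separate measurements.

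Poly(A) RNA of jejunum and liver of Wistar Han rats was sequenced. The antibiotics group was gavaged for 2 weeks with 5 mL/kg of a mixture of ampicillin, metronidazole and neomycin sulfate, all at 20 g/L, with vancomycin at 10 g/L and the antifungal drug amphotericin B at 0.2 g/L. The group that the labels call wild type received saline at the same volume and for the same time, and both groups lived in a specific-pathogen-free facility. Each tissue had 3 libraries per group, 12 in all. Sex, age and bacterial load were not analysed here. The labels do not say which libraries came from separate animals, so p-values measure the spread between these libraries.

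Recovered reads ranged from 14592126 to 18322008 per jejunal library and from 15017775 to 19318616 per liver library. Reads of the mitochondrial genome took 26.8% to 80.7% of a jejunal library and 3.6% to 25.0% of a liver library. That left between 11012 and 37433 reads in the members per jejunal library and between 20324 and 45150 per liver library. Liver markers such as Alb were abundant in all 6 liver libraries, and the enterocyte markers Fabp2 and Vil1 were present in all 6 jejunal libraries. Marker sums set some jejunal libraries apart. In wild-type library 2, 10 cell cycle genes summed to 7539.8 normalized counts and 7 Paneth cell genes to 120262, against at most 3041 and 32667 in the other jejunal libraries. Antibiotics library 3 had the enterocyte gene Alpi at 18.3, against at least 1024 in the other jejunal libraries. In bulk tissue, fewer cells of a type and less RNA per cell cannot be told apart.

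ATF4 binds, as a dimer with C/EBP proteins, to the letters TGATGNAA, where N is any base. RefSeq promoter windows on the GRCr8 build, 250 bases before to 50 after a gene's start, were found for 48 of the 52 members. On either strand these letters were present in 7 of 18 cytosolic synthetase windows (38.9%), in 0 of 16 mitochondrial synthetase windows and in 3 of 14 windows of ATF4 genes (21.4%). Over all 27457 windows the share was 3.82%. The letters were in Aars, Cars, Iars1, Mars1, Nars1, Tars1 and Yars1, and in Chac1, Slc7a1 and Trib3. The 130 bases directly upstream of the start are printed below for the 7 members with a match there. They run 5′ to 3′ on the gene's strand, with the matched 8 letters in capitals. Wars1, the synthetase whose response to antibiotics stood out, is printed beside them and had no match in its window.
Aars (chr19:55908352-55908481, + strand): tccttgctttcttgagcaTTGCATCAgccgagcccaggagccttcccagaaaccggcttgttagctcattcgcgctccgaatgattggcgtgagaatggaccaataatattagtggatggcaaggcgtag
Iars1 (chr17:15193653-15193782, - strand): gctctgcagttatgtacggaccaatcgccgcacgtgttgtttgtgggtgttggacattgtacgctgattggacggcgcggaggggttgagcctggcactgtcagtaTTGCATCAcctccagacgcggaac
Mars1 (chr7:65023754-65023883, - strand): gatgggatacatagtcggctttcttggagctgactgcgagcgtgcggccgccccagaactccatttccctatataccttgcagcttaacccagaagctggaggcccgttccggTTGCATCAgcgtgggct
Nars1 (chr18:60275783-60275912, - strand): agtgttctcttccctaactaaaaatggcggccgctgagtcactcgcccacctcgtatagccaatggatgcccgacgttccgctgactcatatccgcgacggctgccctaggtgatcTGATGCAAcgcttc
Tars1 (chr2:62114803-62114932, - strand): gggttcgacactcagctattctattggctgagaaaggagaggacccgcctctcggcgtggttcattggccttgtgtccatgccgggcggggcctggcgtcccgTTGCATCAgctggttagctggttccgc
Slc7a1 (chr12:11664358-11664487, + strand): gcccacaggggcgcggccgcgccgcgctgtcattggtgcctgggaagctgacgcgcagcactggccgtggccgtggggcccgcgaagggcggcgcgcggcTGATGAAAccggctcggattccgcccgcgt
Trib3 (chr3:161275534-161275663, - strand): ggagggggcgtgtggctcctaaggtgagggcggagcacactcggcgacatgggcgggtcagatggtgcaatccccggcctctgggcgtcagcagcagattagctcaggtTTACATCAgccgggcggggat
Wars1 (chr6:133571646-133571775, - strand): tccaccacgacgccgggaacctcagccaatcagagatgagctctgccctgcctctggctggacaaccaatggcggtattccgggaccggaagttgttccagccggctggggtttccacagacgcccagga

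In Iars1, Mars1, Nars1, Tars1, Slc7a1 and Trib3 the match began between 14 and 30 bases upstream of the start, and in Aars 112 bases upstream. Other matches lay outside the printed stretch: 167 bases upstream in Chac1, and 17 and 38 bases downstream in Cars and Yars1. Aars had a second match, TTTCATCA, 9 bases downstream. Positions near the start are thus partly a result of the stretch chosen for printing. The 4 synthetases with TTGCATCA in the lines above and Nars1, with TGATGCAA, carry the same 8 letters on opposite strands. A match is a description of letters and does not show that ATF4 binds there.

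Levels per gene length (FPKM, as deposited) placed Atf4 at the top of the members in jejunum, with 95.8 ± 6.10 FPKM in antibiotics libraries and 145.2 ± 19.0 in wild-type libraries (SD, n = 3 each). In liver Eprs, the glutamyl-prolyl-tRNA synthetase, had the highest mean with antibiotics at 109.1 ± 10.4 FPKM, and it ranked 4 among the members in wild type at 39.9 ± 2.899. Atf4 had 75.9 ± 18.1 FPKM in antibiotics livers and 80.4 ± 17.8 in wild-type livers, and Shmt2, the mitochondrial serine hydroxymethyltransferase, had 75.7 ± 9.72 and 75.0 ± 19.1 in the same order. These 2 genes do not differ beyond their spread in either group. The median cytosolic synthetase had 11.1 FPKM in antibiotics livers and 12.2 in wild-type livers, and the median mitochondrial synthetase 2.999 and 2.68. In jejunum the corresponding medians were 11.1 and 13.7 FPKM for cytosolic synthetases, and 2.29 and 3.87 for mitochondrial ones. Mars2 was the lowest mitochondrial synthetase in all 4 groups, at a mean of at most 0.0549 FPKM. The tables were normalized separately, so levels in different tissues are only set side by side.

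The first comparison asked how the members of the liver differed with antibiotics. Of the 52 members, 7 rose and 1 fell at an adjusted p under 0.05, against 7.93% and 4.89% of all 16540 genes tested (limma on log2 of the normalized count plus 1, Benjamini-Hochberg over all genes; 12.8% in either direction). The cytosolic synthetases Wars1, Eprs and Iars1, the mitochondrial synthetases Ears2 and Lars2, the asparagine synthetase gene Asns and the serine pathway gene Phgdh rose, and Sesn2 fell. Atf4 itself did not pass the test. Groups did not overlap, with antibiotics above, for 19 members (36.5%), against 19.7% of all genes. They did not overlap with antibiotics below for 7 members (13.5%), against 18.1% of all genes. Log2 fold changes lay above 0 for 37 members (71.2%), against 49.7% of all genes, and 22 members (42.3%) had an unadjusted p under 0.05, against 31.7%. The median log2 fold change was 0.15 over the cytosolic synthetases, 0.17 over the mitochondrial ones and 0.44 over the ATF4 genes, and -0.01 over all genes tested.

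Wars1 (tryptophanyl-tRNA synthetase, ENSRNOG00000004359, chromosome 6, 132771021 to 132802210 in the authors' annotation, whose build is not given in the sources used here) is known as an enzyme that interferon gamma induces. It had normalized counts of 562, 527 and 725 in antibiotics livers, against 136, 206 and 213 in wild-type livers. The groups did not overlap, and the lowest antibiotics library was more than 2 times the highest wild-type library. The log2 fold change was 1.71 (SE 0.23, adjusted p = 0.00555). Eprs (chromosome 13, 103300932 to 103371577) had 7645, 9219 and 8454 in antibiotics livers, against 3313, 3089.8 and 2863 in wild-type livers. This synthetase is part of the multisynthetase complex and, besides charging 2 tRNAs, is known to bind mRNAs in a regulatory complex. Its log2 fold change was 1.45 (SE 0.20, adjusted p = 0.00592), and every antibiotics library lay above every wild-type library. Iars1, the isoleucyl-tRNA synthetase, had 327, 322 and 331 in antibiotics livers, against 148, 229 and 193 in wild-type livers. The antibiotics libraries were close together and all above wild type (log2 fold change 0.80, SE 0.21, adjusted p = 0.0345).

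Eprs changed the make-up of the class. It held 22.4%, 25.8% and 26.4% of the summed cytosolic synthetase FPKM in antibiotics livers, against 13.6%, 12.0% and 11.6% in wild-type livers. The summed FPKM of all 21 was 441.0, 462.9 and 413.7 in antibiotics livers, against 314.0, 332.9 and 319.3 in wild-type livers. Without Eprs it was 342, 343 and 304 in antibiotics livers, against 271, 293 and 282 in wild-type livers, which still do not overlap. Without Eprs and Aars, the alanyl-tRNA synthetase, it was 267, 271 and 237 in antibiotics livers, against 228, 239 and 232 in wild-type livers, and the groups overlapped.

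The other 18 cytosolic synthetases did not pass the test in liver. Tars3, a cytosolic threonyl-tRNA synthetase related to Tars1, had a log2 fold change of 2.28 with an SE of 0.92, which leans on wild-type library 1 with 1 read, under the floor of 3; the ratio of its group means was 2.93, against 3.26 for Wars1. Its counts were 54.8, 36.0 and 54.0 in antibiotics livers, against 1.27, 37.8 and 10.3 in wild-type livers, and wild-type library 2 lay above 1 antibiotics library. Farsb, the beta subunit of phenylalanyl-tRNA synthetase, had 255, 234 and 263 in antibiotics livers, against 166, 169 and 164 in wild-type livers (log2 fold change 0.59, adjusted p = 0.0589). Its partner Farsa had 263, 261 and 228 in antibiotics livers, against 336, 301 and 267 in wild-type livers, a log2 fold change of -0.26 with adjusted p = 0.358. The 2 subunits thus had non-overlapping groups on opposite sides, though neither passed. Of all genes 19.7% did not overlap with antibiotics above and 18.1% with antibiotics below. With the length trend described further on subtracted, limma gave 0.60 for Farsb (adjusted p = 0.0575) and -0.14 for Farsa (adjusted p = 0.631). Aars had 4324, 4099 and 3840.3 in antibiotics livers, against 2484, 3067 and 2854 in wild-type livers (log2 fold change 0.55, adjusted p = 0.0847). Dars and Rars1, for aspartate and arginine, lay below wild type in every library, with log2 fold changes of -0.58 and -0.47 and adjusted p of 0.0971 and 0.135.

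Of the cytosolic synthetases, 8 are known to sit in the multisynthetase complex with 3 scaffold proteins. Their liver log2 fold changes ran from 1.45 for Eprs through 0.80 for Iars1, 0.35 for Lars1, 0.15 for Kars, 0.02 for Mars1 and -0.15 for Qars1 to -0.47 for Rars1 and -0.58 for Dars, with a median of 0.09. Of the scaffold genes, Aimp1 fell, with counts of 185, 188.5 and 128 in antibiotics livers, against 397, 267 and 351 in wild-type livers (log2 fold change -1.02, SE 0.23, adjusted p = 0.0243). Eef1e1 had a log2 fold change of -0.65 (adjusted p = 0.0784) and Aimp2 of -0.26 (adjusted p = 0.480). Thus 3 of 3 scaffold genes lay below 0, against 50.3% of all genes, and 1 of 3 fell, against 4.89%. In liver, members of 1 complex therefore lay on both sides of 0. Gene length moved with this order, as described further on, since Eprs and Iars1 are the longest of the 8.

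Of 17 mitochondrial synthetases, 2 rose in liver, near the 7.93% of all genes. Ears2, the mitochondrial glutamyl-tRNA synthetase, had 118, 108 and 103 in antibiotics livers, against 43.3, 66.4 and 59.3 in wild-type livers. The groups did not overlap (log2 fold change 0.97, SE 0.26, adjusted p = 0.0402). Lars2, the mitochondrial leucyl-tRNA synthetase, had 191, 201 and 200.3 in antibiotics livers, against 49.7, 136 and 98.1 in wild-type livers. The wild-type libraries were spread over a range of more than 2-fold, with library 1 lowest (log2 fold change 1.17, SE 0.33, adjusted p = 0.0469). Iars2 had 443, 455 and 534 in antibiotics livers, against 135, 403 and 329 in wild-type livers, also lowest in wild-type library 1, and did not pass (log2 fold change 0.86, adjusted p = 0.153). Hars2 lay lowest, with 145, 137 and 135 in antibiotics livers, against 217, 161 and 294 in wild-type livers (log2 fold change -0.64, adjusted p = 0.105). Mars2 had at most 2.04 normalized counts in any liver library, at or under the floor of 3 reads, and no fold is given for it. Log2 fold changes of the other 12 lay between -0.44 for Cars2 and 0.52 for Aars2.

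**Figure D1:**
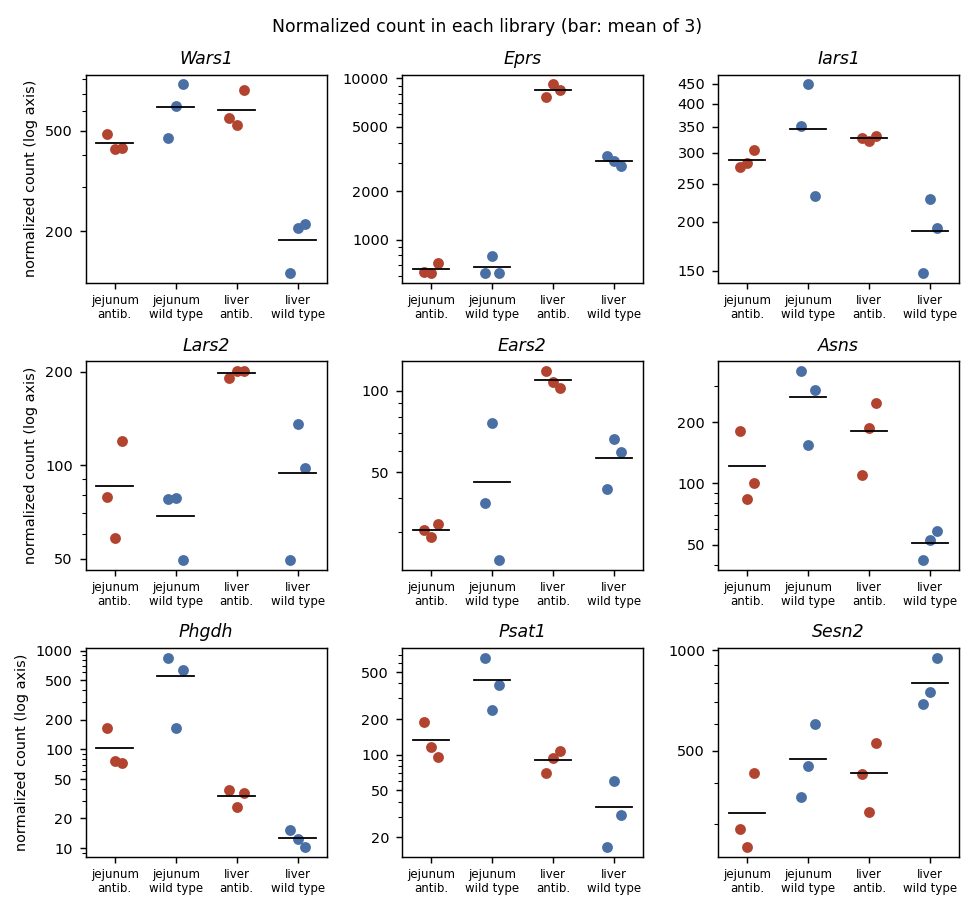
Normalized count in each library (log axis) of the 8 members that passed the test in liver and of Psat1, with antibiotics left of wild type within each tissue, points for the 3 libraries and a bar for their mean. In liver, antibiotics libraries lie above wild type for all but Sesn2, which lies below, while in jejunum Phgdh and Psat1 lie below wild type and Eprs overlaps. Jejunum and liver were normalized separately.

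Among the ATF4 genes that make amino acids, Asns rose most in liver. Asns, which makes asparagine from aspartate and glutamine (chromosome 4, 33743364 to 33761163), had 109.5, 188 and 248 in antibiotics livers, against 42.0, 53.1 and 58.2 in wild-type livers. The groups did not overlap (log2 fold change 1.74, SE 0.32, adjusted p = 0.0129). Phgdh, the first enzyme of serine synthesis, had 38.8, 26.0 and 36.0 in antibiotics livers, against 15.3, 12.3 and 10.3 in wild-type livers. These are low counts in both groups, and they did not overlap (log2 fold change 1.34, SE 0.39, adjusted p = 0.0482). Psat1, the second enzyme, had 69.7, 93.0 and 107 in antibiotics livers, against 16.6, 60.3 and 30.8 in wild-type livers. All antibiotics libraries lay above wild type, but Psat1 missed the threshold (log2 fold change 1.46, SE 0.44, adjusted p = 0.0531). Psph, which completes the pathway, had a log2 fold change of 0.19 with an SE of 0.26.

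The folate enzymes and the transporters did not pass in liver. Mthfd2, a mitochondrial folate dehydrogenase, had 19.9, 26.8 and 16.5 in antibiotics livers, against 10.2, 12.3 and 7.99 in wild-type livers, without overlap (log2 fold change 0.98, adjusted p = 0.149). Shmt2, a partner enzyme of the mitochondrial folate pathway, had a log2 fold change of 0.04 with an SE of 0.23. Slc38a2, a sodium-coupled neutral amino acid transporter, had 2514, 1800.4 and 2026 in antibiotics livers, against 1646, 1149 and 1600.0 in wild-type livers (log2 fold change 0.53, adjusted p = 0.129). Slc7a1, the cationic amino acid transporter, was low in liver, with 8.96, 14.2 and 10.5 in antibiotics livers, against 2.55, 4.09 and 4.56 in wild-type livers. Slc7a5, the light chain of the large neutral amino acid transporter, varied widely, with 109, 342 and 166 in antibiotics livers, against 65.0, 33.7 and 170.0 in wild-type livers. Its heavy chain Slc3a2 had a log2 fold change of -0.14.

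The remaining ATF4 genes shared no direction: Sesn2 and Trib3 lay on opposite sides of 0, and the groups of Atf4 and Chac1 overlapped. Atf4 had 2680.3, 2657 and 1703 in antibiotics livers, against 2704, 1861 and 2889.6 in wild-type livers, with overlap (log2 fold change -0.09, SE 0.26, adjusted p = 0.845). Sesn2, a sestrin that restrains mTORC1 and is itself a known ATF4 target, had 425, 328 and 527 in antibiotics livers, against 690.4, 749 and 949.5 in wild-type livers. It fell with no overlap (log2 fold change -0.91, SE 0.22, adjusted p = 0.0283). Trib3, a pseudokinase that feeds back on ATF4, had 109, 108 and 94.5 in antibiotics livers, against 89.2, 76.6 and 78.7 in wild-type livers (log2 fold change 0.34, adjusted p = 0.335). Chac1, which breaks down glutathione, ranged from 79.6 to 427 in antibiotics livers, against 128 to 181 in wild-type livers. Known ATF4 targets thus lay on both sides in the same livers: Asns and Phgdh higher, Sesn2 lower.

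How many members passed in liver depended on single libraries. The count was 3, 2 and 2 without antibiotics library 1, 2 and 3 in turn, and 4, 14 and 1 without wild-type library 1, 2 and 3. The share of all genes called moved with it, to 2.91%, 3.19% and 2.30% and to 5.57%, 26.7% and 0.447% in the same fits, so that the 14 members (27.5%) were near the share of all genes. Without wild-type library 3 only Wars1 passed, and Eprs then had adjusted p = 0.0527 with a log2 fold change of 1.39. Without wild-type library 1, which had the largest mitochondrial read share (25.0%), Eprs, Wars1, Asns and Sesn2 passed and Lars2 had a log2 fold change of 0.77 with adjusted p = 0.0729. Wars1 passed in all 6 of these fits, with adjusted p between 0.0002698 and 0.0391. The authors' deposited table called 11 members in liver, against 16.5% of all its genes, namely these 8 and, higher, Aars, Farsb and Psat1. Mitochondrial reads took 4.48%, 3.93% and 3.60% of the antibiotics livers, against 24.98%, 6.42% and 16.02% of the wild-type livers. Sums of 5 erythroid markers ran at 10256 to 23283 in antibiotics livers, against 34415 to 75076 in wild-type livers. Of these 5 markers, 5 lay below 0 and 3 fell. Of 7 macrophage markers, 7 lay below 0 and 2 fell. Their sums were 5259 to 6861 in antibiotics livers and 7490.2 to 11549 in wild-type livers. Some lists went the other way in liver. Above 0 lay 7 of 7 stellate cell and fibroblast, 5 of 5 endothelial and 8 of 10 cell cycle markers. Limma called 1 cell cycle marker, higher, and 0 stellate cell, fibroblast or endothelial markers. The sums of each of these lists overlapped between the groups. The part of these cells and of the mitochondrial share in the members' changes was not tested.

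Fold changes over all genes followed gene length in both tissues. In liver the median log2 fold change of genes with a mean count of at least 50 was -0.61 for genes under 1000 bases and 0.36 for genes over 5000 bases, and in jejunum it was -0.61 and 0.42. Eprs spans 4855 transcribed bases, Iars1 5751 and Wars1 3689, against a median of 2319.5 over the 52 members. When the length trend of each library was subtracted, 6 members passed in liver: Wars1 (log2 fold change 1.52, adjusted p = 0.00902), Eprs (1.18, 0.00992), Ears2 (1.04, 0.0336), Asns (1.75, 0.0166) and Phgdh (1.46, 0.0461) higher, and Sesn2 lower (-1.11, 0.0166). Of all genes 9.72% then passed in liver; in jejunum limma then called 0 members, against 0.123% of all genes, with 11 members (21.6%) at an unadjusted p under 0.05, against 20.5% of all genes. Iars1, with 0.49 and adjusted p = 0.128, and Lars2, with 1.03 and adjusted p = 0.0683, no longer passed, and nor did the scaffold gene Aimp1 (-0.66, adjusted p = 0.0536).

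**Figure D2:**
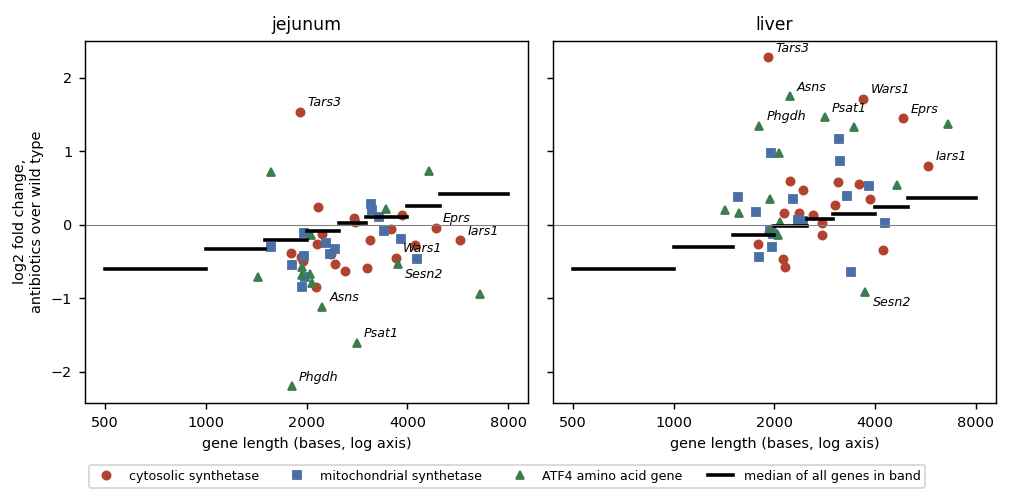
Log2 fold change (antibiotics over wild type) of the members drawn against their gene length in bases (log axis), in jejunum and liver, with symbols for the 3 classes and black bars for the median of all genes with a mean count of at least 50 in each length band. The bars climb with length, with -0.61 at the short end of both panels and 0.42 (jejunum) and 0.36 (liver) at the long end. In liver Asns, Wars1, Phgdh and Tars3 are among those far above the bar of their length, and in jejunum Phgdh, Psat1 and Asns lie far below it.

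The same question was asked of the jejunum, where no member passed. Limma called 0 of 51 tested members at an adjusted p under 0.05, against 1.28% of all 19450 genes (0.761% higher, 0.519% lower). At an unadjusted p under 0.05 there were 12 members (23.5%), against 22.2% of all genes. EdgeR and limma-voom also called 0, against 0.639% and 1.94% of all genes. DESeq2 called Phgdh and Psat1, 4% of the members it tested, against 13% of all genes. The authors' deposited table also called these 2, against 8.22% of all its genes, with Phgdh at a log2 fold change of -2.40 and Psat1 at -1.68. Log2 fold changes lay below 0 for 40 members (78.4%), against 47.1% of all genes. Groups did not overlap with antibiotics below for 14 members (27.5%), against 11.3% of all genes, and with antibiotics above for Tars3 and Slc38a2 (3.92%), against 16.6% of all genes. Mars2, at or under 2.15 normalized counts, was not tested.

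The class medians in jejunum were -0.27 for cytosolic synthetases, -0.32 for mitochondrial synthetases and -0.68 for ATF4 genes, against 0.06 over all genes. The sign of both synthetase medians depended on the scaling, and that of the ATF4 median did not. Scaled by library totals, the median over all genes moved to 0.50, and the medians became 0.23, 0.17 and -0.18, that is -0.27, -0.34 and -0.68 relative to all genes. The synthetase medians also rest on wild-type library 2: without it the medians were -0.10 (cytosolic), 0.03 (mitochondrial) and -0.56 (ATF4 genes). In that library 16 mitochondrial synthetases had a median deviation of 0.66 on the log2 scale from their 6-library mean, and the other 5 jejunal libraries had between -0.23 and -0.05. This is also the library with the highest cell cycle and Paneth cell sums.

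**Figure D3:**
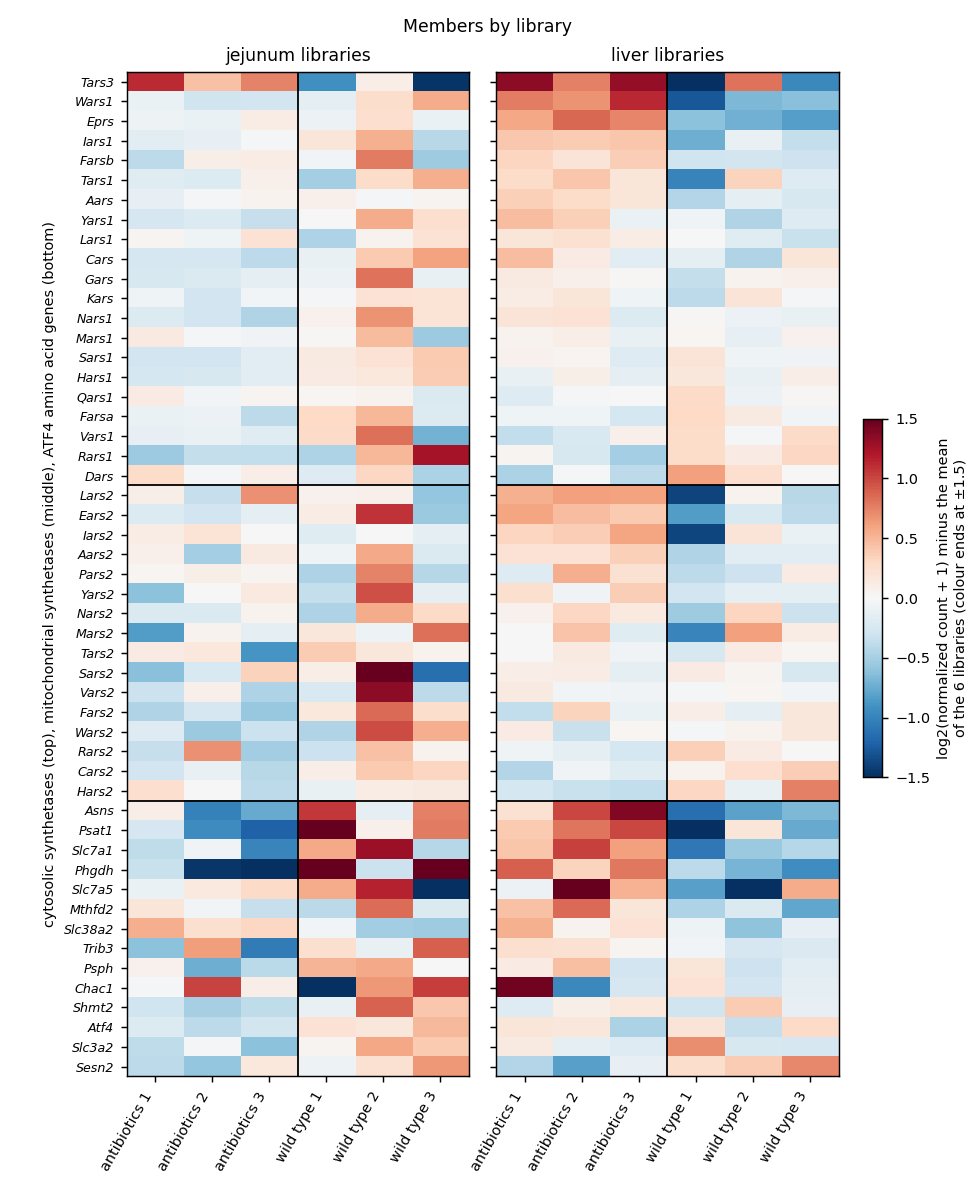
Log2 of the normalized count plus 1 of 51 members in each library, minus the mean of the 6 libraries of that tissue, with antibiotics libraries left of wild type; blue is below the mean, red above, and the colour ends at ±1.5. In jejunum wild-type library 2 is high for most mitochondrial synthetases and wild-type libraries 1 and 3 for Phgdh, Psat1 and Asns. In liver Wars1, Eprs and Asns are high in all 3 antibiotics libraries.

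Phgdh and Psat1, the first 2 enzymes of serine synthesis, had the log2 fold changes farthest below 0 in jejunum, where neither passed, and lay above 0 in liver. Phgdh had 165, 75.4 and 72.4 in antibiotics jejuna, against 845, 166 and 641 in wild-type jejuna. The highest antibiotics library and wild-type library 2 were almost equal, and wild-type libraries 1 and 3 stood far above (log2 fold change -2.20, SE 0.57, adjusted p = 0.0714). Psat1 had 189, 117 and 96.4 in antibiotics jejuna, against 660.2, 238 and 387 in wild-type jejuna, without overlap (log2 fold change -1.61, SE 0.41, adjusted p = 0.0701). Asns had 182, 83.9 and 100.1 in antibiotics jejuna, against 357, 155 and 288 in wild-type jejuna. Wild-type library 2 lay below the highest antibiotics library (log2 fold change -1.12, SE 0.41, adjusted p = 0.154). Psph had a log2 fold change of -0.72 (adjusted p = 0.330) and Shmt2 of -0.79 (adjusted p = 0.175).

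The same 2 wild-type libraries were rich in adipocyte and in erythroid transcripts. The 7 measured adipocyte markers, Fabp4, Adipoq, Lep, Plin1, Cidec, Lpl and Cfd, summed to 8924, 4124 and 3351 normalized counts in antibiotics jejuna, against 50009, 8389 and 51708 in wild-type jejuna. All 7 had log2 fold changes below 0, with a median of -2.61. Limma called 0 of them (7 at an unadjusted p under 0.05), edgeR 0, limma-voom 1 and DESeq2 7. The 5 erythroid markers summed to 2472, 3553 and 3646 in antibiotics jejuna, against 11038, 3422 and 9990 in wild-type jejuna. All 5 lay below 0, with a median of -0.80, and limma called 0. Smooth muscle markers went the other way: 8 of 8 lay above 0 and 1 passed, with sums of 219191 to 231500 in antibiotics jejuna, against 54792 to 159108 in wild-type jejuna. Stellate cell and fibroblast markers also lay mostly above 0 (6 of 7). Below 0 lay 7 of 7 enterocyte, 10 of 10 cell cycle, 6 of 6 Paneth cell and 5 of 6 goblet cell markers. Their medians were -0.71, -1.07, -2.25 and -1.20. Limma called 0 in each of these lists, and their sums overlapped between the groups. Plasma cell markers summed to 946 to 1064 in antibiotics jejuna and 1479 to 2403 in wild-type jejuna, and pancreatic acinar markers, at 56.5 to 100.8 in antibiotics jejuna and 202 to 396 in wild-type jejuna, were near the floor except for Cela1. Mitochondrial reads took 63.0%, 26.8% and 80.7% of the wild-type jejuna, against 64.8%, 51.3% and 38.7% of the antibiotics jejuna. The part of these cells and of the mitochondrial share in the values of Phgdh, Psat1, Asns and the other members was not tested. Without wild-type library 2 Phgdh passed with a log2 fold change of -2.92 and adjusted p = 0.0297, and without wild-type library 1 it had -1.75 and adjusted p = 0.101. Without wild-type library 1, 2 other members passed, Slc38a2 (higher) and Rars1 (lower). These were 3.92% of the members tested in that fit, against 9.79% of all genes.

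**Figure D4:**
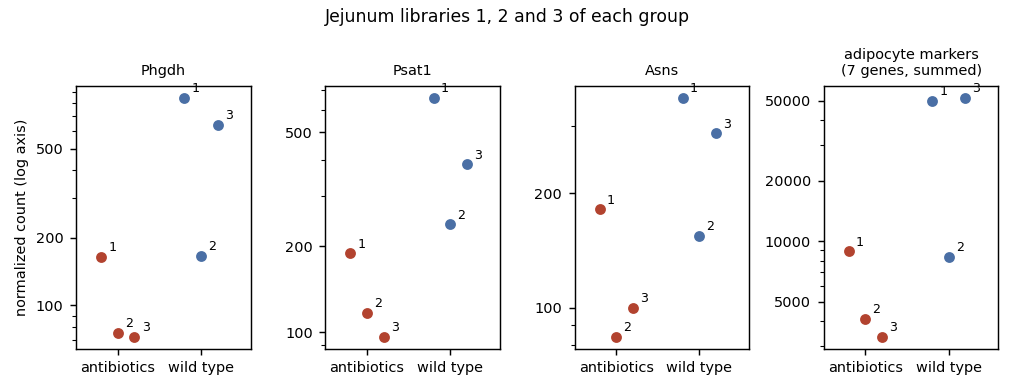
Normalized counts (log axis) of Phgdh, Psat1 and Asns and the sum of 7 adipocyte markers in the jejunal libraries, with antibiotics left of wild type and each point numbered by its library. Wild-type libraries 1 and 3 are the highest 2 in all 4 panels, at 50009 and 51708 for the marker sum, and wild-type library 2 lies near or within the antibiotics range for Phgdh, Asns and the marker sum.

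Atf4 had 2636, 2323 and 2514 in antibiotics jejuna, against 3530.5, 3429 and 4282 in wild-type jejuna. Every antibiotics library was below every wild-type one, but the difference did not pass (log2 fold change -0.58, SE 0.24, adjusted p = 0.196). Of the transporters, Slc38a2 had 2303, 1869 and 1965 in antibiotics jejuna, against 1539.8, 1100.3 and 1095 in wild-type jejuna, above in every library (log2 fold change 0.73, SE 0.26, adjusted p = 0.139). Slc3a2 had 496, 637 and 421 in antibiotics jejuna, against 664, 962 and 847 in wild-type jejuna, below in every library (log2 fold change -0.67, adjusted p = 0.179). The 2 transporters thus had separate groups on opposite sides of 0, though neither passed. They differ in length, at 4635 bases for Slc38a2 and 2054 for Slc3a2. With the length trend subtracted, limma gave 0.43 (adjusted p = 0.334) and -0.61 (adjusted p = 0.223). Slc7a1, low in liver, had 223, 279.5 and 145 in antibiotics jejuna, against 429, 708 and 215 in wild-type jejuna, with overlap.

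Jejunal synthetases differed less. The smallest adjusted p values among cytosolic ones were 0.165 for Tars3, 0.189 for Nars1 and 0.220 for Rars1. Tars3 had 70.1, 43.2 and 53.5 in antibiotics jejuna, against 16.2, 33.8 and 10.8 in wild-type jejuna, without overlap (log2 fold change 1.54, SE 0.58). It passed in neither tissue. Nars1, the asparaginyl-tRNA synthetase, had 719.8, 684 and 608 in antibiotics jejuna, against 870.5, 1329 and 955 in wild-type jejuna (log2 fold change -0.63). Rars1 had 553, 628 and 623 in antibiotics jejuna, against 583, 1136 and 1914 in wild-type jejuna, and the wild-type libraries alone spanned more than 3-fold. Among mitochondrial synthetases Fars2 had 74.6, 85.6 and 68.6 in antibiotics jejuna, against 114, 185 and 122.6 in wild-type jejuna (log2 fold change -0.85, SE 0.36, adjusted p = 0.203). Cars2, for cysteine, had 118, 133 and 108 in antibiotics jejuna, against 155, 189 and 181 in wild-type jejuna, without overlap (log2 fold change -0.55, SE 0.31, adjusted p = 0.321). Wars2, for tryptophan, had 67.8, 52.5 and 61.7 in antibiotics jejuna, against 56.6, 155 and 114 in wild-type jejuna, with overlap (log2 fold change -0.72, SE 0.45, adjusted p = 0.376). Eprs, which rose in liver, had 633, 620.0 and 719.8 in antibiotics jejuna, against 624, 795 and 622 in wild-type jejuna (log2 fold change -0.04, SE 0.24).

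The third comparison asked whether the antibiotic response of a member differed between jejunum and liver, by an interaction fitted with edgeR's quasi-likelihood test to the recovered reads of 14187 genes. One of 51 members passed, Wars1, against 0.0564% of all genes (8 genes). Its response was lower in jejunum than in liver by 2.11 on the log2 scale (difference -2.11, SE 0.33, adjusted p = 0.0386). Wars1 had a log2 fold change of -0.45 in jejunum, where antibiotics libraries had 487, 423 and 426 and wild-type libraries 470.1, 625 and 766, and of 1.71 in liver. Differences that missed the threshold were -2.90 for Asns (SE 0.57, adjusted p = 0.0555), -3.77 for Phgdh (SE 0.77, adjusted p = 0.0609), -1.43 for Eprs (SE 0.31, adjusted p = 0.0689), -2.94 for Psat1 (SE 0.65, adjusted p = 0.0689) and -2.56 for Slc7a1 (SE 0.71, adjusted p = 0.0944). Among the synthetases with the next smallest p, Yars1 had a difference of -0.96 (adjusted p = 0.123), Iars1 of -0.98 (0.159) and Ears2 of -1.52 (0.169). Dars followed with 0.86 (0.197), Nars1 with -0.72 (0.204) and Cars with -0.82 (0.210). After these came Fars2 with -0.76 (0.278) and Hars2 with 0.68 (0.295). Atf4 had a log2 fold change of -0.58 in jejunum and -0.09 in liver.

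In jejunum minus liver, 43 of 51 members had a difference below 0 (84.3%), against 51.1% of all genes, with a median of -0.65 against -0.02. A log2 fold change below 0 in jejunum together with one above 0 in liver was found in 27 of 51 members (52.9%), against 20.1% of the 14721 annotated genes tested in both tables. This held for 11 of 21 cytosolic synthetases, 8 of 16 mitochondrial synthetases and 8 of 14 ATF4 genes. Another 2 members, Dars and Qars1, lay above 0 in jejunum and below 0 in liver. With library totals in place of TMM factors Wars1 no longer passed (difference -1.98, adjusted p = 0.372) and Phgdh did. Wars1 passed in 3 of 12 fits with 1 library left out, with differences between -2.26 and -1.93 and adjusted p between 0.00776 and 0.140 over the 12.

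**Figure D5:**
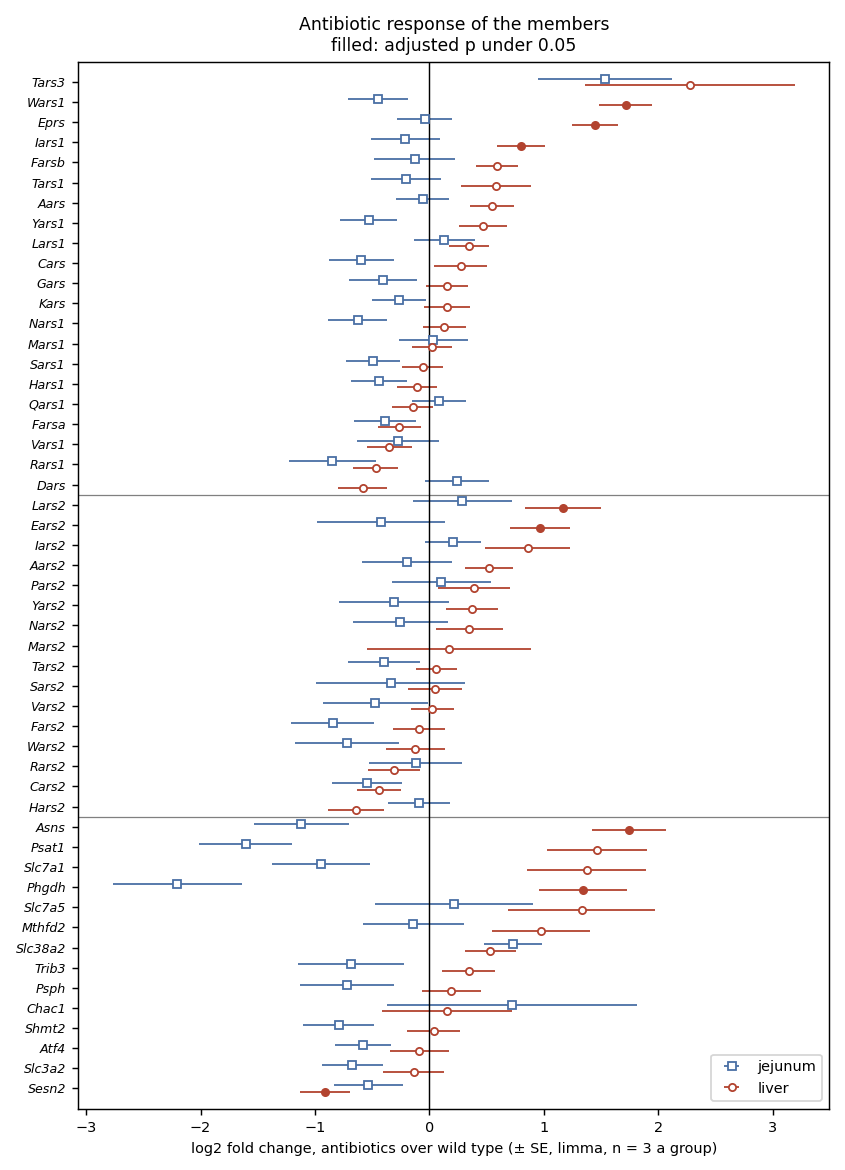
Log2 fold change (antibiotics over wild type) ± SE of the members drawn in jejunum (squares) and liver (circles), grouped as cytosolic synthetases, mitochondrial synthetases and ATF4 genes from top to bottom and ordered by the liver value. Filled symbols passed an adjusted p of 0.05, which 8 members did in liver and 0 in jejunum. The tissues part most for Phgdh, Psat1, Asns and Slc7a1, at -2.20 against 1.34 for Phgdh.

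Cytosolic synthetases with the ATF4 letters in their promoter window were compared with those without as a description. In liver the 7 with the letters all lay above 0, between 0.02 for Mars1 and 0.80 for Iars1, with a median of 0.47. The 11 matched ones without them lay between -0.35 and 2.28, with 6 above 0 and a median of 0.15, and they include Eprs and Wars1. After the length correction 6 of the 7 lay above 0, with a median of 0.37 and Mars1 at -0.07, and 7 of the 11, with a median of 0.15. In jejunum the medians were -0.21 with the letters and -0.27 without, and -0.55 and -0.24 after the length correction. Of the 8 members that passed in liver, Iars1 was the 1 with the letters in its window, while Eprs, Wars1, Ears2, Lars2, Asns, Phgdh and Sesn2 had none in theirs.

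Genes around the members were counted from lists of known function. Of 25 other stress-response and ATF4 targets measured in liver, 4 rose and 0 fell, against 7.93% and 4.89% of all genes. The list as a whole was balanced, with 12 above 0, 13 below 0 and a median of -0.03. Slc1a4, a transporter of alanine, serine and cysteine, had 462, 245 and 143 in antibiotics livers, against 35.7, 54.1 and 43.4 in wild-type livers (log2 fold change 2.51, SE 0.39, adjusted p = 0.00928). Aldh1l2, a mitochondrial folate enzyme, had 1998, 1462 and 1933 in antibiotics livers, against 465, 1035 and 583 in wild-type livers (log2 fold change 1.44, adjusted p = 0.0164). Ddit4, an inhibitor of mTORC1, had a log2 fold change of 1.47 (adjusted p = 0.0313), and Xpot, the nuclear exporter of tRNA, of 0.94 (adjusted p = 0.0188). All 4 had groups that did not overlap, and all 4 also passed after the length correction. The stress genes Ddit3, Gdf15 and Nupr1 did not pass and lay below 0, at -0.85, -1.27 and -1.13.

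Limma called 0 of 14 genes for eIF2alpha kinases, its phosphatase subunits, eIF2 and eIF2B in both tissues, with 3 in liver and 0 in jejunum at an unadjusted p under 0.05; edgeR called 0 in both, and DESeq2 and limma-voom 1 each in liver and 0 in jejunum. Of 12 further serine, glycine and folate enzymes limma and edgeR called 0 in both tissues, with 8 in liver and 1 in jejunum at an unadjusted p under 0.05 by limma. Over all genes that share was 31.7% in liver and 22.2% in jejunum. DESeq2 called 4 of these 12 in liver and 1 in jejunum, and limma-voom 1 and 0. Of 8 elongation and release factors, Gspt1, a release factor GTPase, rose in liver with 115.5, 100.5 and 185 in antibiotics livers, against 24.2, 19.4 and 13.7 in wild-type livers (log2 fold change 2.73, adjusted p = 0.00522). Of 10 mitochondrial translation factors, Tsfm rose in liver with 107.5, 113 and 117 in antibiotics livers, against 19.1, 46.0 and 17.1 in wild-type livers (log2 fold change 2.14, adjusted p = 0.0117). Of 10 asparagine, glutamine and glutamate enzymes, the alanine aminotransferase gene Gpt fell in liver (log2 fold change -1.02, adjusted p = 0.0219). Over these lists and the scaffold genes, limma called 8 of 82 genes in liver (9.76%), under the 12.8% of all genes. In jejunum limma called 1 of 83 genes over these lists (1.28% over all genes), the transcription factor gene Cebpb among 26 stress-response genes, with 538, 435 and 473 in antibiotics jejuna, against 1267, 933 and 1490.5 in wild-type jejuna (log2 fold change -1.33, adjusted p = 0.0406).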

How the data were processed

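Poly(A) RNA was sequenced as paired 150-base reads, per the labels' protocols. The software CASAVA 1.4, HISAT2 2.0.5 and DESeq2 1.20.0 is listed in the submitters' processing notes. The genome build, the counting tool and its use of strand are not given in the sources used here, so reads of a gene and of an overlapping or antisense partner cannot be separated. The deposited count columns hold the authors' normalized signal: in both tables every value is a whole number of reads times 1 factor per library (100% whole within 0.01). The FPKM values that the authors deposited are proportional to that normalized count over gene length within each library. Log2 fold changes and p-values in the authors' deposited tables were used for comparison only.

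Within each tissue, limma 3.58.1 (R 4.3.3, trend and robust) was fitted to log2(normalized count + 1) for genes with a mean of at least 1, with Benjamini-Hochberg adjustment over all genes and a threshold of 0.05. Fold changes are on this scale, where the pseudocount and single low libraries can move those of low genes either way. The tissue difference was tested with edgeR 4.0.16 (TMM, quasi-likelihood, filterByExpr) on recovered reads of annotated genes in both tables. The alternatives tried were pseudocounts of 0.1 and 5, testing without a filter or with one at 1 CPM, a replicate block, library totals, TMM or RLE scaling, edgeR, DESeq2 1.42.0, limma-voom, a spread pooled over 12 libraries, subtraction of a lowess trend (span 0.3) on log gene length, and each library left out. A floor of 3 reads covers counting error only. The tests were also run on simulated counts, drawn independently for each gene. These counts held no length trend and no outlying library, so they do not show how the tests behave with either. No 2 libraries were duplicates. Of the members, 1 is counted in the totals, and its own values are not reported here or drawn. Members, classes and lists were chosen with earlier results of these data known. Values per library are given for members past the threshold, for Atf4 and, where fewer than 3 of a class passed, for its 3 members with the smallest p; other members singled out in the text were chosen after their values were seen. Of the listed symbols, those without a row in a table, such as Cth, were not used. Promoter sequences are from RefSeq (GRCr8), matched by symbol or gene identifier.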

Additional observations from a re-analysis of the deposited data

Results flagged for a closer look

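The antibiotic response of Wars1 differed between the tissues, by an interaction test with edgeR: the log2 difference, jejunum minus liver, was -2.11 (SE 0.33, adjusted p = 0.0386). This call depended on the processing. It held in 11 of 21 alternatives, among them 3 of 12 fits with 1 library left out. With library totals edgeR gave adjusted p = 0.372. Normalized counts were lower with antibiotics in 2 of 3 jejunal libraries than in any wild-type jejunal library, and higher in 3 of 3 liver libraries than in any wild-type liver library.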

How the results depend on the processing

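No alternative turned the direction of a member that had passed. Over the 10 members that the naming rule chose in jejunum, 171 of 180 alternative values stayed on the same side of the threshold, in liver 136 of 180 (43 lost and 1 gained the call) and for the tissue difference 174 of 210 (10 lost, 26 gained). Wars1 passed in liver under all 18 alternatives, and Atf4 in neither tissue under any.

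Members called in jejunum (0 in the limma fit) were 2 with DESeq2 (4%, against 13% of all genes) and 2 with a pooled spread (3.92%, against 10.4%). With a library left out they were 0 to 2, against 0.00515% to 9.79% of all genes. In liver (8) they were 4 with a pooled spread (7.84%, against 9.56% of all genes). With a library left out they were 1 to 14, against 0.447% to 26.7% of all genes. For the tissue difference (1) they were 3 with limma, 6 with DESeq2, 2 with limma-voom, 5 with limma after the length correction, and 0 to 5 with a library left out. Of all genes the same fits called 84, 918, 45, 162 and 0 to 834, so member calls rose and fell with the calls over all genes. Over all genes, jejunal calls (249; 148 higher, 101 lower) were 160 with a pseudocount of 0.1, 65 with library totals (61 higher, 4 lower), 97 with edgeR, 1976 with DESeq2, 1530 with a pooled spread, 24 after the length correction and 1 to 1902 with a library left out. Liver calls (2121; 1312 higher, 809 lower) were 3217 with DESeq2, 1407 with a pooled spread and 74 to 4416 with a library left out, and library totals gave 1115 higher and 414 lower. Calls for the tissue difference (8; 2 higher, 6 lower) were 13 without a filter, 90 with library totals (37 higher, 53 lower), 84 with limma, 918 with DESeq2, 45 with limma-voom, 162 with limma after the length correction and 0 to 834 with a library left out. The cause of these shifts was not tested. Library totals moved the median of all liver genes to 0.14.

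Replicate numbers were not taken to pair the libraries. Deviations of same-numbered libraries correlated at 0.24, 0.28 and 0.09 in jejunum, where each library correlated best with its own number, and at 0.12, -0.15 and -0.19 in liver. With a replicate block, 3 members (Asns, Phgdh and Psat1, lower) were called in jejunum. That was 5.88% of the members tested, under the 8.35% of all genes (1625 genes). In liver 6 members (11.5%) were called, near the 10.8% of all genes. For the tissue difference 91 of 14187 genes and 4 of 51 members (Wars1, Asns, Phgdh and Psat1) were called. Depth limits Mars2 and Chac1 in jejunum and Mars2, Slc7a1, Mthfd2, Phgdh and Tars3 in liver, where counts in some libraries were few.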
